A study of Rattus norvegicus with 8 samples.

Results

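This account follows 47 marker genes of white blood cells through the ventral prostate of male rats. The genes were chosen by name, with earlier results of these data known, so their counts beside shares of all probe sets are a description. They form 3 blocks of 19 macrophage, 21 T and NK cell and 7 B cell markers. Each gene was followed on every probe set annotated to that symbol alone. Of the 47 genes, 43 had such a probe set, which gave 54 of the 31042 probe sets on the array that are not controls. Msr1, Cd27, Cd79a and Cd72 were not listed with a probe set and were not analysed here. A probe set is a group of short probes on the array that read 1 transcript, and its intensity is given in the units of the deposited values.

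The arrays held RNA of generation 3 (F3) males descended from pregnant Sprague-Dawley rats that were injected intraperitoneally on gestation days 8 to 14. There were 4 groups of 2 arrays. At 180 days of age the whole ventral prostate was taken, from control or vinclozolin descendants, and at 45 days the ventral prostate epithelium, again from either lineage. Vinclozolin is a fungicide with antiandrogenic activity, and the arrays compare prostate transcripts of its later descendants with those of controls. Every sample, also those titled vinclozolin, has a treatment protocol that names only the vehicle (DMSO), so the lineage of each array rests on its title. Each epithelium sample pooled 11 animals and each whole prostate sample pooled several. Whether both samples of a group hold RNA of different animals is not stated, and a p-value here therefore reflects only how far these pools differ, which may be technical. Age and preparation changed together and cannot be told apart.

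Macrophages are resident phagocytes that carry Fc receptors, complement components and lysosomal proteases, and they depend on signalling through the receptor encoded by Csf1r. T and NK cells are lymphocytes marked by the CD3 chains of the T cell receptor complex, its kinases Lck and Zap70, and the granzymes and perforin of cytotoxic cells. B cells are marked by the chains of the B cell receptor complex and by surface proteins such as Cd22 and Ms4a1 (CD20). All of these cells can reside in the prostate, mostly in the stroma and between epithelial cells. In RNA of a whole tissue, fewer cells of a type and less RNA per cell cannot be told apart.

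In the 180-day whole prostates of vinclozolin descendants, most macrophage and T cell markers read higher than in control, while B cell markers had no common direction. Fcgr3a, Csf1r and Fcer1g were the only 3 member probe sets that passed the test there. They rose 2.25-fold, 2.16-fold and 2.13-fold on normalised values with 16 added, a scale that understates changes of low intensities. Their mean deposited intensity went from 48.6 to 136.9, from 51.7 to 136.7 and from 177.2 to 399.1. In 45-day epithelium no member passed the test in the lineage comparison. Between the control groups, 14 member probe sets were called lower and 1 was called higher in epithelium than in whole prostate, where 15% and 12.9% of all tested probe sets were.

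The blocks differed in how well the array read them. A probe set was taken as dim, and not tested, when its mean over the 8 arrays was under the 30th percentile of all probe sets. Only 1 of 21 macrophage probe sets (4.76%) was dim, that of Fcgr2b. Of the T and NK probe sets, 14 of 28 (50%) were dim, and of the 5 B cell probe sets 1 (20%) was dim, that of Cd79b. Among all probe sets with 1 gene symbol, 23.8% were dim. The dim T and NK genes included all probe sets of the cytotoxic genes Gzma, Gzmb, Prf1, Nkg7 and Klrd1 and of the CD8 chains Cd8a and Cd8b. Thus 17 of 19 macrophage, 13 of 21 T and NK and 4 of 7 B cell genes were tested on their brightest probe set. A filter on the mean keeps a gene that is bright in 1 group only, so counts over the tested members are a description and do not stand for all members.

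An intensity under 16 units was used as a second measure of dimness, array by array. It held for 60.7% and 53.6% of T and NK probe sets in the 2 whole prostate control arrays and for 35.7% and 32.1% in the 2 vinclozolin arrays. In epithelium the share ran from 53.6% to 71.4%. Over all probe sets the corresponding shares were 36.7% and 36.1%, then 35.2% and 32.7%, and from 28.3% to 30.8% in epithelium. The T and NK markers were thus read above 16 units more often on the whole prostate vinclozolin arrays than on any other array. For the macrophage probe sets the share was 9.52% and 14.3% in whole prostate control, 9.52% and 4.76% in vinclozolin and from 14.3% to 28.6% in epithelium.

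**Figure D1:**
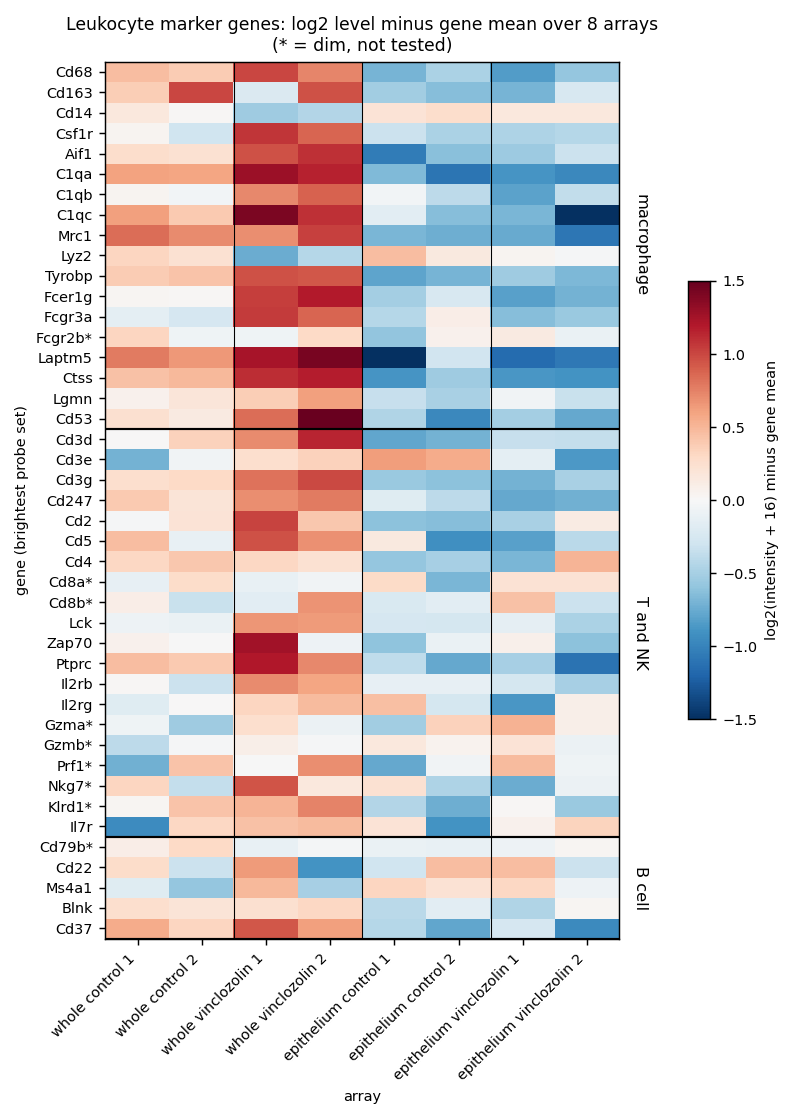
Level of each of the 43 genes (rows, brightest probe set) on each of the 8 arrays (columns), as log2(intensity + 16) minus the gene's mean over the arrays, with red above and blue below that mean and dim genes starred. In 31 of the 43 rows the whole prostate vinclozolin group had the highest mean, and Lyz2 and Cd14 had their lowest values there.

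The group with the highest mean level was whole prostate vinclozolin for 14 of 18 macrophage genes, 15 of 20 T and NK genes and 2 of 5 B cell genes. That group was the highest for 27.9% of all probe sets. In 13 of 18 macrophage genes and 10 of 20 T and NK genes both of its arrays lay above all 6 other arrays, as they did for 10% of all probe sets and for 1 of 5 B cell genes, Cd37.

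Among all 21729 probe sets tested, 1.74% were called in the whole prostate lineage comparison at an adjusted p under 0.05 in limma's fit, 0.819% higher and 0.925% lower. Of the macrophage probe sets 3 of 20 tested were called higher and 0 lower. Each change is a log2 difference (vinclozolin minus control) ± the fit's standard error, SE, from n = 2 arrays a group, on the log2(intensity + 16) scale, which understates the change of dim probe sets.

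Fcer1g encodes the signalling chain shared by Fc receptors. Its intensity was 177.4 and 177.1 in whole prostate control, 376.5 and 421.6 in whole prostate vinclozolin, 117.1 and 143.2 in epithelium control and 94.6 and 101.7 in epithelium vinclozolin. Both whole prostate vinclozolin arrays lay far above the other 6, and within epithelium the vinclozolin arrays lay below the controls without overlap. The change in whole prostate was 1.09 ± 0.13 (adjusted p = 0.0183 in limma) and that in epithelium -0.39 ± 0.13 (adjusted p = 0.366).

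Csf1r encodes the receptor for colony stimulating factor 1, on which macrophage survival depends. It read 59.8 and 43.6 in whole prostate control, 149.5 and 123.8 in whole prostate vinclozolin, 51.5 and 43.5 in epithelium control and 46.1 and 47.4 in epithelium vinclozolin. Apart from the whole prostate vinclozolin arrays, the groups lay in 1 range. Its change was 1.11 ± 0.15 in whole prostate (limma adjusted p = 0.0261) and -0.05 ± 0.15 in epithelium.

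Fcgr3a encodes a receptor for immunoglobulin G of macrophages and NK cells. It read 50.9 and 46.4 in whole prostate control, 148 and 125.9 in whole prostate vinclozolin, 47.4 and 73.1 in epithelium control and 40 and 42.4 in epithelium vinclozolin. Both whole prostate vinclozolin arrays lay above all other arrays, and both epithelium vinclozolin arrays lay below all others. Its change was 1.17 ± 0.19 in whole prostate (limma adjusted p = 0.0404) and -0.43 ± 0.19 in epithelium.

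These 3 calls rested on few arrays. Without either whole prostate control replicate or either whole prostate vinclozolin replicate, 0 of the 3 were called, and with the 4 whole prostate arrays fitted alone 0 were called. Without either epithelium control replicate 2 members were called, and without either epithelium vinclozolin replicate 1 was. The change itself ranged from 1.01 to 1.16 for Fcer1g, from 0.93 to 1.26 for Csf1r and from 1.06 to 1.25 for Fcgr3a over the fits that left out 1 array.

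**Figure D2:**
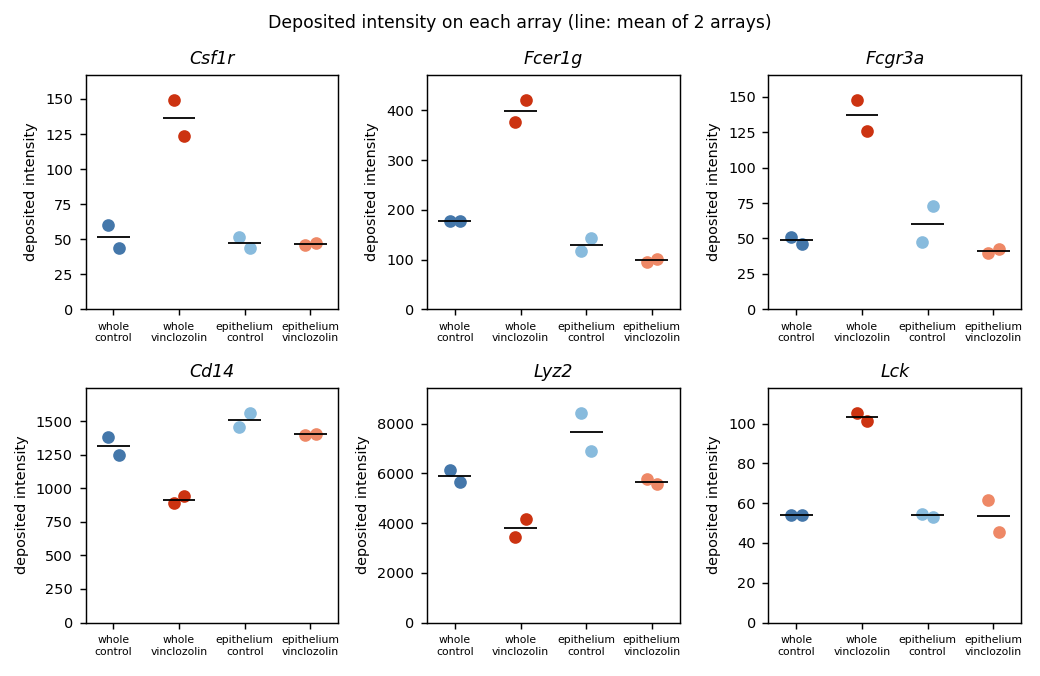
Deposited intensity (vertical axis, starting at 0) of 6 members on each array, with 1 point per array and a line at the mean of the 2 arrays of a group. Csf1r, Fcer1g, Fcgr3a and Lck were highest on the 2 whole prostate vinclozolin arrays, and Cd14 and Lyz2 were lowest there.

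Promoter sequence was looked at because the factor PU.1, which directs myeloid and B cell differentiation, binds a purine-rich site with the core GAGGAA. RefSeq windows on build GRCr8, from 250 bases before to 50 bases after the gene start, were found for 34 of the 47 genes. GAGGAA on either strand stood in 10 of 13 macrophage windows, 6 of 18 T and NK windows (Lck has 2) and 3 of 4 B cell windows, and in 27.6% of all 33469 windows of that length. The longer GAGGAAGT, which contains GAGGAA, stood in 3 of 13 macrophage windows, those of Fcgr3a, Ctss and Cd53, in 1 T and NK window (Cd5), in 1 B cell window (Cd37) and in 2.42% of all windows. A match says only that these letters are present. The windows of the called genes Fcgr3a and Csf1r and of Ctss and Cd53 are shown 5′ to 3′ on the gene's strand, for comparison of where the letters fall. No window was found for Fcer1g, which was also called. All windows shown were picked because they hold the letters. Those of Cd163, C1qa and Lgmn hold no GAGGAA and are not shown. Capitals mark GAGGAAGT read on the opposite strand (ACTTCCTC) or, in Csf1r, GAGGAA read on the opposite strand (TTCCTC).
Fcgr3a, chr13:85782386-85782685, plus strand: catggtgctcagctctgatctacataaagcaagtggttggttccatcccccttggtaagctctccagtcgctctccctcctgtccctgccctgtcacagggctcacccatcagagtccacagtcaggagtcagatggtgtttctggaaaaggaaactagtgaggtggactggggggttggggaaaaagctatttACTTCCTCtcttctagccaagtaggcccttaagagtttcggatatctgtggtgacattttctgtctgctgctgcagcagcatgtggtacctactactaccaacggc
Ctss, chr2:185775146-185775445, plus strand: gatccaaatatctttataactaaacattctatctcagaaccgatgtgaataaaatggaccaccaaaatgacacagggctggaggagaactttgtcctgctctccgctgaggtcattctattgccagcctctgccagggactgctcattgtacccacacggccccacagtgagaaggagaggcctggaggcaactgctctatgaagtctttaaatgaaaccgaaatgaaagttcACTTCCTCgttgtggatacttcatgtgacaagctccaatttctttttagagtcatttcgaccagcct
Cd53, chr2:197087847-197088146, minus strand: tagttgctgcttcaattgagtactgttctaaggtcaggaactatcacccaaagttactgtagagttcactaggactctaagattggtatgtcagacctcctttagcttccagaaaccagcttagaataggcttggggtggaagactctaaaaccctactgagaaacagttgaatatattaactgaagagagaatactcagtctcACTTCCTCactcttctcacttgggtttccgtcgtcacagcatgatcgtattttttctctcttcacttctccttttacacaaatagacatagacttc
Csf1r, chr18:56834129-56834428, plus strand: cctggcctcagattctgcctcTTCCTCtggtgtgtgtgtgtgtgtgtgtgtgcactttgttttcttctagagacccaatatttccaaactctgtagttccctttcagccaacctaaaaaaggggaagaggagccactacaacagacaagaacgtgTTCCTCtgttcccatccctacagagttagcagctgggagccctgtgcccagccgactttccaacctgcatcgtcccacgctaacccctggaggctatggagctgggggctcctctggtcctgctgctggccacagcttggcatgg
In the first 3 windows the capitals began 56, 17 and 46 bases before the gene start, in the same orientation each time. In Csf1r they began 229 and 95 bases before it.

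The remaining macrophage genes had smaller or less certain differences in whole prostate. Of the 18 genes with a probe set, 14 had a positive change, and the median was 0.61 beside 0.00 over all probe sets, of which 48.7% of those tested were positive. On 13 of the 18 both vinclozolin arrays lay above both control arrays and on 2 both lay below, against 24% and 24.2% of all probe sets. Before adjustment, 13 of 20 tested macrophage probe sets had a p under 0.05 and were higher and 2 were lower, against 8.74% and 9.98% of all those tested.

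The complement genes C1qa, C1qb and C1qc encode the 3 chains of C1q, which macrophages make. C1qa read 181.1 and 179.8 in whole prostate control and 299.3 and 268.9 in vinclozolin, a change of 0.62 ± 0.16 (limma adjusted p = 0.118). C1qb read 84.8 and 79.4, then 150.2 and 167.7, a change of 0.80 ± 0.19 (limma adjusted p = 0.0952). C1qc read 98.4 and 80.8, then 185 and 143.2, a change of 0.74 ± 0.42 (limma adjusted p = 0.397). In each of the 3 genes both vinclozolin arrays were above both controls, and none was called.

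Tyrobp, the adaptor DAP12 of myeloid and NK receptors, read 52 and 55.7 in whole prostate control and 88.9 and 85.6 in vinclozolin (0.54 ± 0.11). Aif1, the calcium-binding protein IBA1 of macrophages, read 51.4 and 50.7, then 96.5 and 106.8 (0.77 ± 0.17), on its brighter probe set, of a type (_s_at) whose probes can match several transcripts. Its other probe set read 15.8 and 7.7, then 19.9 and 33.5. The lysosomal protease gene Ctss read 206.4 and 213.8, then 336.9 and 352.8 (0.68 ± 0.14). For these genes the groups did not overlap in whole prostate, and none of them was called.

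Cd53, a tetraspanin found on most leukocytes, read 53.6 and 49.2 in whole prostate control and 92.7 and 157 in vinclozolin (0.97 ± 0.26). Laptm5, a lysosomal protein of blood cells, read 75.9 and 67.7, then 110.2 and 129.7 on its brighter probe set (0.61 ± 0.37). Cd68, a lysosomal glycoprotein of macrophages, read 67.9 and 63.3, then 109 and 84.8 (0.45 ± 0.16). The protease gene Lgmn read 338.8 and 369.1, then 414.5 and 494.5 (0.37 ± 0.15). These 4 were likewise apart between the groups and not called.

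The mannose receptor Mrc1 and the haemoglobin scavenger receptor Cd163 mark tissue-resident macrophages. Mrc1 read 63.6 and 57.5 in whole prostate control and 55.3 and 74.5 in vinclozolin (0.09 ± 0.17). Cd163 read 28.3 and 56.5, then 14.8 and 53.4 (-0.31 ± 0.40). Unlike most of the block, both of these genes overlapped between the groups.

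Lyz2 and Cd14 differed from the rest of the block in direction. Lyz2, the lysozyme gene, read 6134.1 and 5666.5 in whole prostate control, 3440.5 and 4169.4 in whole prostate vinclozolin, 8432.2 and 6917.5 in epithelium control and 5768.6 and 5573.1 in epithelium vinclozolin. Cd14, a co-receptor for bacterial lipopolysaccharide, read 1379.4 and 1251.3, then 892.1 and 940.5 in whole prostate, and from 1397 to 1561.5 in epithelium. Both genes were lowest on the whole prostate vinclozolin arrays and lay apart from the controls there. Their changes were -0.86 ± 0.16 (limma adjusted p = 0.0569) and -0.58 ± 0.11 (limma adjusted p = 0.0643), so neither was called. Between the control groups they measured 0.03 ± 0.16 and 0.14 ± 0.11, epithelium minus whole prostate, and with Fcgr3a they were the only 3 macrophage genes with a positive value there.

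T and NK markers had 0 called probe sets among the 14 tested in whole prostate. At an unadjusted p under 0.05, 7 of the 14 were higher and 0 lower, against 8.74% and 9.98% of all those tested. Of the 20 genes with a probe set, 18 had a positive change, with a median of 0.54. Both vinclozolin arrays lay above both controls for 12 of the 20 genes and below for 0, against 24% and 24.2% of all probe sets. The other 8 genes overlapped.

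Lck, the kinase that starts T cell receptor signalling, had the lowest p of the block. It read 53.9 and 54.2 in whole prostate control, 105.3 and 101.4 in whole prostate vinclozolin, 54.7 and 53.2 in epithelium control and 61.8 and 45.5 in epithelium vinclozolin. Its change in whole prostate was 0.73 ± 0.14 (limma adjusted p = 0.0591). With the values as deposited, without further normalisation, its adjusted p was 0.0486 in limma. Over the 10 alternatives that left out no single array its limma adjusted p ran from 0.0196 to 0.102, and it was called in 5. Aif1 on its brighter probe set, Ctss, Il2rb and, as lower, Lyz2 and Cd14 were each called in 4 of those 10. For Lck only the whole prostate vinclozolin arrays stood above the others, as for Csf1r.

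Il2rb, the beta chain of the receptors for interleukin 2 and interleukin 15, read 35.4 and 24.5 in whole prostate control and 70.6 and 63 in vinclozolin (0.80 ± 0.16, limma adjusted p = 0.0618). Cd3g, a chain of the CD3 complex, read 57.2 and 60.8, then 94.9 and 108.6 (0.62 ± 0.13, limma adjusted p = 0.0715). Cd3d, another CD3 chain, read 12.6 and 20.4, then 31.9 and 48.9 (0.75 ± 0.18, limma adjusted p = 0.0999). All 3 genes were apart between the groups without passing the test.

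Cd247, the zeta chain of the T cell receptor complex, read 30.6 and 24.8 in whole prostate control and 43.2 and 47.6 in vinclozolin on its brighter probe set (0.45 ± 0.13). Ptprc (CD45), the phosphatase on all white blood cells, read 58 and 54.7, then 110.6 and 72.1 (0.53 ± 0.26). Il2rg, the gamma chain shared by several interleukin receptors, read 27.4 and 35, then 47.6 and 55.5 (0.49 ± 0.35). The groups did not overlap for these genes, although the vinclozolin arrays of Ptprc were far apart from each other.

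The 2 T cell lineage co-receptors were read poorly. Cd4 read between 20.1 and 23 on all 4 whole prostate arrays, with a change of -0.09 ± 0.34. Cd8a had 3 dim probe sets, and on 1 of them it read 3.8 and 4 in whole prostate control, 21.5 and 40.4 in vinclozolin and at most 3.2 in epithelium. The other 2 probe sets of Cd8a read at most 15.4 on any whole prostate array. Cd8b read 5.6 and 0.9, then 2.8 and 18. A helper and a cytotoxic share can therefore not be compared on these arrays.

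Of the cytotoxic genes, Gzma read at most 10.9 on the whole prostate arrays, Gzmb at most 11.2 and Prf1 from 1.4 to 29.7. Nkg7, a granule protein of cytotoxic cells, read 16.6 and 5.8, then 35.8 and 15.8. Klrd1, an NK receptor chain, read 9.8 and 17.8, then 20.7 and 28.8. These probe sets were dim and were not tested, and no change of cytotoxic cells could be read from them.

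Several T cell markers rested on a single array or differed between probe sets. Zap70 read 26.8 and 25.1 in whole prostate control and 89.4 and 25.7 in vinclozolin, so its change of 0.56 ± 0.45 came from 1 array. Il7r, the interleukin 7 receptor, read 1.4 and 22.6, then 27.3 and 29.7 on 1 probe set, and at most 8.7 on all 8 arrays on the other. Cd3e read 2.4 and 11.6, then 18.4 and 22.5 on its brighter probe set, and 21.4 and 8.3, then 19.9 and 17.6 on the dim one. The surface proteins Cd2 and Cd5 measured 0.61 ± 0.27 and 0.64 ± 0.37, with vinclozolin arrays above control arrays in both.

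B cell markers had no common direction in whole prostate. Cd22, an inhibitory receptor of B cells, read 48.2 and 25.8 in control and 68.1 and 14.3 in vinclozolin (-0.11 ± 0.55). Ms4a1 read 11.3 and 6, then 28.7 and 8.1 (0.38 ± 0.33). Vinclozolin replicate 1 was the higher array for both, with replicate 2 below the higher control array.

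Blnk, an adaptor of B cell receptor signalling, read 56.2 and 53.8, then 55 and 59.3 (0.06 ± 0.18). Cd37, a tetraspanin of B cells that other leukocytes also carry, read 27.6 and 21.5, then 42.7 and 32.3 (0.34 ± 0.26). Cd79b, a chain of the B cell receptor complex, read at most 6.3 on any of the 8 arrays. Of the 4 tested B cell probe sets 0 were called and 0 had an unadjusted p under 0.05. With Cd79b dim and Cd79a without a probe set, the receptor complex that defines B cells was not measured well enough to follow.

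**Figure D3:**
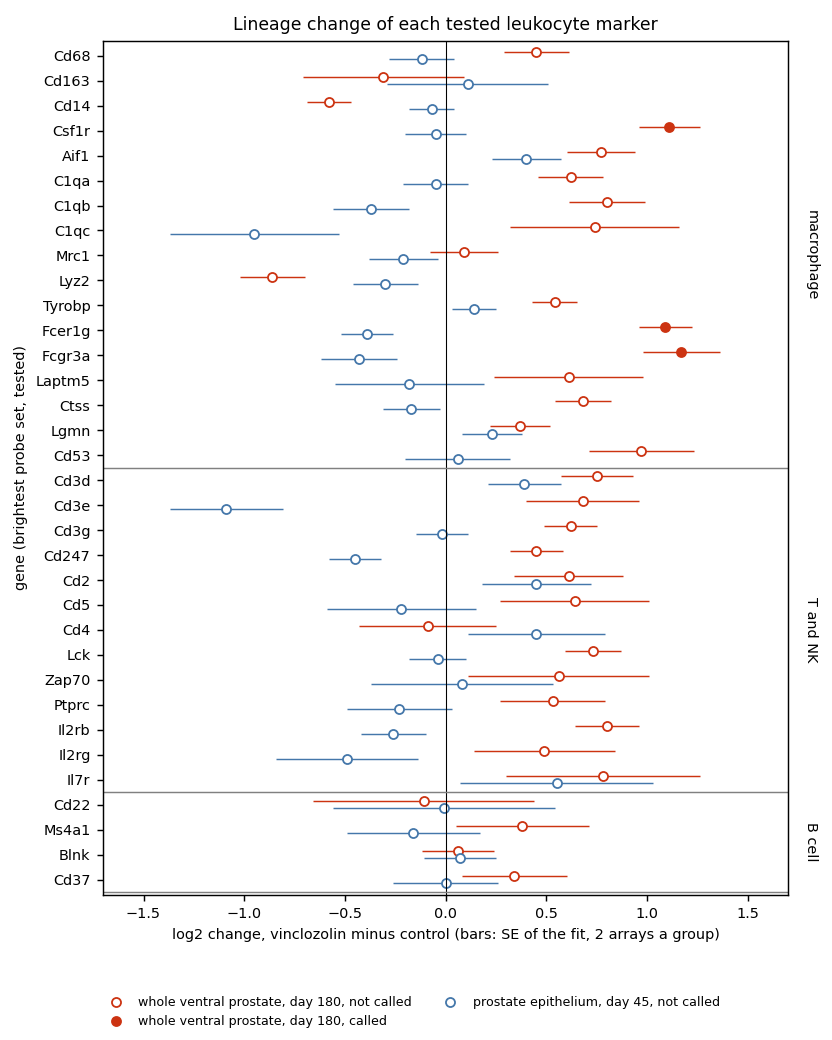
Log2 change, vinclozolin minus control (horizontal axis, SE of the fit as bars), of each of the 34 tested genes in whole prostate (red) and epithelium (blue), with filled points for calls. Filled points are only those of Csf1r, Fcer1g and Fcgr3a in whole prostate, and most blue points lie nearer 0 than the red ones.

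In epithelium of 45-day males, the lineage comparison gave 0 calls among 38 tested member probe sets, where 2 of 21729 probe sets in all (0.0092%) were called in limma. At an unadjusted p under 0.05 there were 0 higher and 3 lower members, Fcer1g, Cd247 and Cd3e, where 5.59% and 5.78% of all tested probe sets were higher and lower. The medians were -0.10 over 18 macrophage genes, 0.03 over 20 T and NK genes and 0.00 over 5 B cell genes.

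Cd247 read 21.5 and 14.6 in epithelium control and 8.5 and 9.1 in epithelium vinclozolin (-0.45 ± 0.13, limma adjusted p = 0.313) on 1 probe set. On its other probe set it read 24.3 and 26.5, then 29.7 and 19 (-0.08 ± 0.22), with the groups overlapping. Cd3e read 36.2 and 31.6, then 14.3 and 1.3 on its brighter probe set (-1.09 ± 0.28, limma adjusted p = 0.28), and no more than 2.1 on the dim one. C1qc read 56.1 and 34.9, then 36 and 2.8 (-0.95 ± 0.42). These are low intensities, and the values of 1 array, vinclozolin replicate 2, set much of the change of Cd3e and C1qc.

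Aif1 measured 0.40 ± 0.17 in epithelium, from 15.2 and 24.4 in control to 29.6 and 35.8 in vinclozolin, on its brighter probe set. Its other probe set went from 25.2 and 19.6 to 10.1 and 13.3 (-0.48 ± 0.22), so the 2 probe sets of Aif1 disagreed in sign there. Cd3d measured 0.39 ± 0.18, with all 4 epithelium arrays at or under 10.4. The B cell genes Blnk, Cd22, Ms4a1 and Cd37 measured 0.07 ± 0.18, -0.01 ± 0.55, -0.16 ± 0.33 and 0.00 ± 0.26. None of these passed the test.

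The lineage changes in the 2 preparations were compared with each other as epithelium minus whole prostate. The difference was called for 1 member probe set, Fcer1g (-1.48 ± 0.19, limma adjusted p = 0.0498), where 0.29% of all probe sets were called. It was lost in each of the 8 fits that left out 1 array (adjusted p from 0.0925 to 0.26). Fcgr3a measured -1.60 ± 0.27 (limma adjusted p = 0.0873) and Csf1r -1.15 ± 0.22 (limma adjusted p = 0.123). At an unadjusted p under 0.05, 17 of the 38 tested members were below 0 and 2, Lyz2 and Cd14, above 0, against 6.39% and 7.15% of the probe sets tested.

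**Figure D4:**
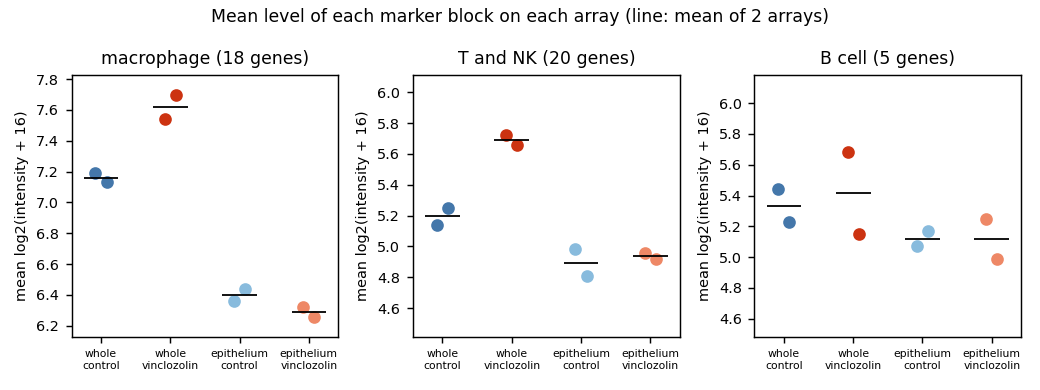
Mean log2(intensity + 16) over the genes of each block (vertical axis, 1 panel a block, the same span of values in each) on each array, with a line at the mean of the 2 arrays of a group. Macrophage and T and NK levels were highest on the whole prostate vinclozolin arrays and lowest in epithelium, and the 2 whole prostate vinclozolin arrays of the B cell block stood apart from each other.

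Summarised over all genes with a probe set, the mean macrophage level on the log2 scale was 7.19 and 7.13 in whole prostate control, 7.54 and 7.70 in whole prostate vinclozolin and from 6.26 to 6.44 in epithelium. The mean T and NK level was 5.14 and 5.25, then 5.72 and 5.66, and from 4.81 to 4.98 in epithelium. The mean B cell level was 5.44 and 5.23, then 5.68 and 5.15, and from 4.99 to 5.25 in epithelium. The first 2 blocks were apart between lineages in whole prostate, and the B cell block overlapped. The summed intensity of the macrophage genes went the other way, with 9120 and 8518 in whole prostate control, 6970 and 7919 in whole prostate vinclozolin and from 7772 to 10758 in epithelium. Lyz2 alone made up 6134.1 and 5666.5, then 3440.5 and 4169.4, of the whole prostate sums. The summed T and NK intensity was 413 and 455, then 848 and 774, and from 314 to 426 in epithelium. These scores were given no test, since the members were chosen with results of these data known.

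The control groups were compared to see where the markers lay before any lineage difference. Of the 38 tested member probe sets, 14 were called lower in epithelium than in whole prostate and 1 was called higher, where 15% of all tested probe sets were called lower and 12.9% higher. This comparison shares the whole prostate control arrays with the lineage comparison. The macrophage genes called lower were Mrc1, C1qa, Ctss, Tyrobp, Aif1, Cd68, Laptm5, Lgmn and Cd53, 9 of 20 tested probe sets.

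Mrc1 fell from 63.6 and 57.5 in whole prostate control to 15.5 and 13.2 in epithelium control (-1.48 ± 0.17, limma adjusted p = 0.00174). C1qa fell from 181.1 and 179.8 to 69.3 and 47.2 (-1.47 ± 0.16, limma adjusted p = 0.00157). Tyrobp fell from 52 and 55.7 to 18.9 and 19.7 (-1.15 ± 0.11, limma adjusted p = 0.001). Ctss fell from 206.4 and 213.8 to 74.8 and 96.8 (-1.17 ± 0.14, limma adjusted p = 0.00212). The epithelium vinclozolin arrays of these 4 genes also lay below both whole prostate control arrays, with C1qa at 59.2 and 54.6 and Tyrobp at 26.7 and 21.5.

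The 3 genes that were called in whole prostate by lineage were not called here. Fcer1g measured -0.40 ± 0.13, Csf1r -0.26 ± 0.15 and Fcgr3a 0.04 ± 0.19 between the control groups. Of the T and NK probe sets, Cd3g (-0.86 ± 0.13), Cd3d (-0.92 ± 0.18), Ptprc (-1.01 ± 0.26) and Cd247 (-0.58 ± 0.13) were lower in epithelium and Cd3e was higher (0.97 ± 0.28) on its brighter probe set. The dim probe set of Cd3e measured -0.91, so this higher value was not shared within the gene. Second probe sets of genes called lower did not all share that direction. Those of Cd247, Aif1 and Lgmn measured 0.24 ± 0.22, 0.28 ± 0.22 and 0.28 ± 0.22, none of them called. That of Laptm5 measured -0.36 ± 0.16, also not called, and the dim one of Ptprc -0.16. Of the B cell genes, Cd37 was lower (-1.04 ± 0.26). Without whole prostate control replicate 1, without whole prostate control replicate 2 and without epithelium control replicate 2 the 15 calls became 8, 8 and 9, and Tyrobp, C1qa, Mrc1, Ctss, Cd68, Aif1 and Cd3g were called in each of these.

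Over all 18 macrophage genes the median change between the control groups was -0.90, with 15 negative. Over the 20 T and NK genes it was -0.27, with 15 negative, and over the 5 B cell genes -0.30. The median over all probe sets was -0.03, and 45.4% of those tested were positive. With the values as deposited 12 of the 20 T and NK genes were negative (median -0.12), and with median centring 15 were (median -0.35).

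Other white blood cell genes were counted from wider lists, which were also drawn up with earlier results of these data known. Of 32 tested probe sets of 36 other myeloid genes 1 was called higher in whole prostate and 0 lower, that of Irf8. Over all tested probe sets 0.819% were called higher and 0.925% lower. At an unadjusted p under 0.05, 10 of the 32 were higher and 0 lower, against 8.74% and 9.98% of all those tested. Irf8, a transcription factor of macrophage and dendritic cell differentiation, read 26.1 and 29.5 in control and 113.7 and 113.6 in vinclozolin, and from 34.8 to 43 in epithelium (1.47 ± 0.11, limma adjusted p = 0.00359). The brightest of that list were Cd9 (0.19 ± 0.11), Mpeg1, a pore-forming protein of macrophages (0.90 ± 0.17, limma adjusted p = 0.0591), and Lyn (-0.02 ± 0.15), none of them called. The median of its 30 genes was 0.23, with 22 positive.

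Of the 36 other T and NK genes 0 of 16 tested probe sets were called, 0 had an unadjusted p under 0.05, and the median of 27 genes was 0.22 with 19 positive. Thy1, Cxcr3 and Klrk1, the brightest, measured 0.14 ± 0.16, -0.07 ± 0.22 and 0.48 ± 0.22. Of the other B and plasma cell genes 1 of 12 tested probe sets was called, that of Cd74 (1.03 ± 0.13, limma adjusted p = 0.0225), the invariant chain of MHC class II, which all antigen-presenting cells carry. Sdc1 and Fcrla, the next brightest, measured 0.18 ± 0.14 and 0.27 ± 0.13, and the median of 15 genes was 0.20. At an unadjusted p under 0.05, 4 of these 12 probe sets were higher and 0 lower. Over all tested probe sets 8.74% were higher and 9.98% lower by that measure, and 1.74% were called.

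Genes of white blood cells in general gave calls in both directions. Of 21 tested probe sets 1 was called higher and 1 lower, against 0.819% and 0.925% of all those tested. Coro1a, an actin-binding protein of leukocytes, read 53.7 and 64.6 in whole prostate control and 153.1 and 166 in vinclozolin, a rise of 1.16 ± 0.17 (limma adjusted p = 0.0311). Cd52, a small glycoprotein of lymphocytes and of male genital tract epithelium, fell from 143.5 and 132.4 to 51.3 and 59.7 (a log2 change with an SE of 0.17, limma adjusted p = 0.0487). The brightest, Lcp1, Ptpn6 and Cd48, measured 0.05 ± 0.13, 0.03 ± 0.17 and 0.07 ± 0.11. The median of 20 genes was 0.37, with 18 positive. At an unadjusted p under 0.05, 9 of the 21 probe sets were higher and 1 lower, against 8.74% and 9.98% of all those tested.

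Granulocyte and mast cell genes were mostly dim (10 of 16 probe sets), and 0 of 6 tested were called in whole prostate by lineage, with 0 at an unadjusted p under 0.05. Cpa3, Cma1 and Ms4a2, the brightest and all of mast cells, measured 0.13 ± 0.21, 0.12 ± 0.21 and -0.14 ± 0.19. Among red blood cell genes, which can show blood left in a tissue, Hbb measured 0.26 ± 0.11 and was not called. Ahsp, a haemoglobin chaperone, read 41.5 and 26.1 in whole prostate control and 127.8 and 93.9 in vinclozolin (1.27 ± 0.45, limma adjusted p = 0.21). The remaining genes of that list, Alas2 and Slc4a1, measured 0.03 ± 0.31 and, on the brighter probe set, -0.47 ± 0.33, so the list had no common direction. The summed intensity of the 4 red blood cell genes was 1000 and 1058 in whole prostate control and 1325 and 1255 in vinclozolin. Hbb alone made up 923.6 and 994.6, then 1176.2 and 1122.3, of these sums. The part of left blood in the leukocyte values was not tested.

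Markers of other cell types and other features of the arrays moved with the groups. In whole prostate by lineage, 0 of 12 tested epithelial, 0 of 10 smooth muscle and 0 of 12 fibroblast probe sets were called. At an unadjusted p under 0.05, 5 of the 10 smooth muscle probe sets were lower and 0 higher. By the same measure 2 of the epithelial ones were higher and 2 lower, and 1 fibroblast probe set was higher and 1 lower. Over all tested probe sets 8.74% were higher and 9.98% lower. The summed intensity of the 8 smooth muscle genes was 2537 and 2531 in whole prostate control and 2094 and 1966 in vinclozolin, without overlap. Of 8 endothelial probe sets 1 was called higher, that of Esam (0.73 ± 0.12). Of 6 tested secretory cell probe sets 2 were called lower, those of Azgp1 and Msmb. Over all tested probe sets 0.819% were called higher and 0.925% lower. The summed intensity of the 6 secretory genes was 14908 and 14904 in whole prostate control and 10868 and 10908 in vinclozolin. Msmb alone made up 5881.1 and 5575.3, then 2243.8 and 2302.3, of these sums. Pbsn, Hoxb13 and Tgm4 on its brighter probe set measured -0.31 ± 0.11, -0.01 ± 0.12 and 0.03 ± 0.31, none of them called. The summed intensity of the 12 epithelial genes was 13077 and 12672, then 13369 and 13684. The ratio of the 3′ to the 5′ probe set of beta-actin was 3.74 and 3.98 in whole prostate control, 3.37 and 3.14 in vinclozolin and from 2.26 to 2.57 in epithelium, and the 5S ribosomal RNA control read 463 and 479 in whole prostate control against 189 and 184 in vinclozolin. Of 10 smooth muscle probe sets 8 were called higher in epithelium control than in whole prostate control, and of 12 tested fibroblast probe sets 10 were. In that comparison 12.9% of all tested probe sets were called higher and 15% lower. Acta2, smooth muscle actin, read 118.9 and 165.2 in whole prostate control and 2117.1 and 1788.7 in epithelium control. The arrays labelled epithelium thus carried stromal transcripts, and of 12 tested epithelial probe sets 7 were called higher there and 1 lower, that of Cldn7 (-0.80 ± 0.16, limma adjusted p = 0.0124). Of 8 endothelial probe sets 4 were called higher there. The part of these features in the leukocyte values was not tested.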

How the data were processed

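Expression was measured on 8 Affymetrix rat arrays, 2 a group. The deposited values are intensity on a linear scale, which the authors had scaled to a 2% trimmed mean of 125 on every array, as the values show. Their software was not given in the sources used here. Arrays give no read depth, and the number of arrays limits the precision. Control probe sets (57) were dropped, 16 was added, and log2 values were quantile normalised. A filter at the 30th percentile of the mean (log2 level 4.89) was applied, and 21729 of 31042 were tested. limma 3.58.1 in R 4.3.3 fitted 4 group means (lmFit and eBayes, 4 residual degrees of freedom) after the script was tested on simulated data. Calls are Benjamini-Hochberg adjusted p under 0.05 over all probe sets tested. Summaries and figures used Python 3.11.15 and matplotlib 3.10.9. Per gene, the brightest probe set stands for the gene. Genes were named from GEO's platform annotation, and promoters from RefSeq, GRCr8.

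The members and all gene lists were chosen with earlier results of these data known. Members were named if called in any comparison, among the 5 brightest genes a block, or among the 3 of lowest p a block and lineage comparison. Epithelium intensities are given for only some of them. In the other white blood cell lists, genes called in whole prostate by lineage and the brightest 3 were named. Genes of those lists called in the other comparisons were not all named. Other members' values, among them those of dim T and NK genes, were chosen after they were seen. A planned search of protein sequences was not run, and those sequences were not used here. Alternatives changed the scaling, pseudocount, filter, prior, array weights, arrays fitted and the replicate block, and left out each array.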

Additional observations from a re-analysis of the deposited data

Results flagged for a closer look

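In the wider lists of white blood cell genes, the difference between preparations was called for Irf8 (-1.42 ± 0.16, limma adjusted p = 0.0314) and Nckap1l (-1.61 ± 0.19, limma adjusted p = 0.0374). Among the members, Fcer1g was singled out because its lineage change differed between epithelium and whole prostate in the test of the difference itself (-1.48 on the log2 scale, limma adjusted p = 0.0498). Its change was 1.09 in whole prostate and -0.39 in epithelium, and the call was lost in each of the 8 fits that left out 1 array.

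A further 3 dim probe sets moved in opposite directions in the 2 preparations on every array, and the difference was not tested for any of them. How many of all probe sets did so was not counted. In whole prostate alone both vinclozolin arrays lay above both controls for 24% of all probe sets and below for 24.2%. This flag was applied to dim members only, and tested members such as Fcgr3a and Il2rb had the same pattern. For Cd8a, 1 of 3 probe sets measured 1.24 in whole prostate and -0.10 in epithelium. The dimmer probe set of Ptprc measured 0.67 and -0.08. Cd79b measured -0.27 and 0.09. In epithelium all 3 read at most 3.8 intensity units.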

How the results depend on the processing

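In whole prostate by lineage, 3 members were called. The count was 1 with a pseudocount of 1 or with no filter, 14 with a pseudocount of 64, 13 with the filter at the 50th percentile, 12 with a trended robust prior or with array weights, 0 with the 4 arrays fitted alone, and 0 to 2 when 1 array was left out. The difference between preparations, called for 1 member, was called for 0 with median centring, a pseudocount of 1, no filter or the replicate block, for 3 with a pseudocount of 64, 2 with the 50th percentile filter, 6 with the trended robust prior, and 0 without any 1 array. Between the control groups 15 members became 9 with a pseudocount of 1 and 8 to 17 when 1 array was left out. In epithelium the lineage count was 0 in every fit listed. The cause was not tested, except that fewer probe sets tested or fewer arrays follow from the setting itself.

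Macrophage and T and NK medians over tested genes kept their sign in these fits for whole prostate by lineage and between the control groups. The T and NK median in epithelium by lineage ran from -0.23 to 0.03 and was above 0 with no filter (0.03) and without epithelium control replicate 1 (0.02). B cell medians changed sign in each comparison, from -0.03 to 0.58 in whole prostate, -0.34 to 0.19 in epithelium, -0.59 to 0.06 for the difference and -0.45 to 0.05 between controls. In whole prostate the macrophage median (0.62) was 0.70 and 0.51 with pseudocounts 1 and 64, and 0.58 to 0.65 when 1 array was left out. The T and NK median (0.62) was 0.81 and 0.31 with those pseudocounts, 0.54 with no filter and 0.55 to 0.75 without 1 array. Between the control groups the macrophage median (-0.91) was -0.72 over all tested probe sets, -0.80 as deposited, -1.03 with median centring, -1.30 and -0.54 with the pseudocounts, and -0.96 to -0.67 without 1 array. The T and NK median (-0.56) was -0.36 as deposited, -1.07 and -0.21 with the pseudocounts, -0.27 with no filter, -0.17 with the 50th percentile filter and -0.69 to -0.32 without 1 array. Median centring moved the median of all tested probe sets in that comparison from -0.05 to -0.20. It also gave 2 of 5 B cell genes a positive lineage change in whole prostate, against 3 of 5 otherwise. Calls over all probe sets in whole prostate by lineage went from 379 to 965 with the 50th percentile filter, 1814 with the trended robust prior, 1133 with the pseudocount of 64, 871 with array weights, 235 with the pseudocount of 1, 200 with no filter and 65 with the 4 arrays alone.

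Sign changes occurred for values that were not called, the farthest from 0 being Ms4a1 in whole prostate (0.38) and Ptprc in epithelium (-0.23). With another setting, Cd3g in epithelium became 0.02 (as deposited), Blnk in whole prostate -0.01, Cd37 in epithelium -0.01 and Fcgr3a between controls -0.02 (median centring), and Cd37 and Laptm5 in epithelium -0.30 and 0.02 (pseudocount of 1). Leaving out 1 array gave, in whole prostate, -0.88 to 0.66 for Cd22, -0.11 to 0.88 for Ms4a1 and -0.07 to 0.25 for Mrc1, and between controls -0.23 to 0.31 for Fcgr3a. In epithelium it gave -0.27 to 0.17 for C1qa, -0.12 to 0.09 for Cd3g, -0.12 to 0.03 for Csf1r, -0.17 to 0.32 for Blnk, -0.19 to 0.32 for Cd53, -0.34 to 0.35 for Cd37, -0.41 to 0.38 for Cd22, -0.81 to 0.46 for Laptm5, -0.25 to 0.01 for Cd68, -0.22 to 0.13 for Lck, -0.53 to 0.07 for Ptprc and -0.34 to 0.03 for Ms4a1. Of the other values of single genes under alternatives, 1154 kept direction and call, 87 lost the call and 43 gained it.

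Replicate numbers shared between groups are not said to mark pairs. The correlations of same-numbered deviations over all tested probe sets lay between -0.02 and 0.03. Such a correlation cannot exclude pairing that touches only some genes. With the replicate block, 2 members (Csf1r and Fcer1g) were called in whole prostate, 0 for the difference and 13 between controls, and calls over all probe sets in whole prostate fell to 177. Of the T and NK probe sets 14 of 28 were dim and not tested, and of the B cell probe sets 1 of 5.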
